A study of Mus musculus with 4 samples.

Results

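Solute carriers are membrane proteins that move amino acids, sugars, ions, metals, vitamins and metabolites across the plasma membrane and the membranes of organelles. Some work alone, some as exchangers that trade one substrate for another, and some as light chains that reach the surface only with a heavy chain. Stem cells in culture draw amino acids, glucose, phosphate and metals from the medium through them. The members described here are protein-coding mouse genes named Slc followed by a family number, a letter and a member number, at 2 TPM or more in at least 1 of 4 libraries, with the glucose transporter genes Slc2a1 and Slc2a3 left out. TPM expresses a gene's transcripts as a share of the library's transcripts, after scaling for transcript length. Of 369 genes with such names, 23 were listed at 0 TPM in every library, 128 stayed above 0 but under 2 TPM, and 218 reached it, which left 216 members. The members were thus chosen by their TPM in these libraries, and those levels are given as a description.

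The libraries came from EB3, a line of embryonic stem cells of the mouse, kept on gelatin with LIF, a cytokine that holds such cells undifferentiated, in medium with serum, pyruvate and added non-essential amino acids. There were 4 libraries: parental EB3 cells (wild type), EB3-derived cells with an empty vector (also wild type), and EB3-derived cells with NUP98-HOXA9, replicates 1 and 2. NUP98-HOXA9 is a fusion of a nucleoporin with a homeodomain transcription factor, known from acute myeloid leukaemia. The labels give neither the vector's promoter nor whether fusion replicates 1 and 2 were cultured or cloned separately. A p-value here therefore reflects the scatter of these 4 libraries alone, which may be technical. Only the empty-vector library controls for the vector.

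The libraries held 19021386 to 21151729 estimated counts. Hoxa9, part of the fusion, was listed at 0 TPM in the parental and the empty-vector library, against 250 and 172 TPM in fusion replicates 1 and 2. Pluripotency markers were present throughout: Pou5f1 lay between 1063 and 1259 TPM. Of 6 genes of primitive and visceral endoderm at 2 TPM in both groups, 5 passed the test as higher in the fusion libraries. Of 11241 protein-coding genes at that level, 1.9% did. The 20 listed genes, many of them at that level in fusion libraries only, summed to 160 and 177 TPM in the wild-type and 682 and 595 TPM in the fusion libraries, with no listed gene at 0 in all libraries. The 10 embryonic stem cell markers had no call in either direction (4 at an unadjusted p under 0.05; 3 higher by DESeq2), nor did the 6 fibroblast (2 unadjusted; 0 by DESeq2) or 7 trophectoderm markers tested (3 unadjusted; 1 by DESeq2). Fibroblast markers summed to 21.6 to 47.4 TPM. The part of the endoderm genes' shift in the solute carrier values was not tested. In bulk RNA, more cells of a type and more RNA per cell cannot be told apart.

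Of the 216 members, 189 reached 2 TPM in at least 1 library of each group, 23 did so in fusion libraries only and 4 in wild-type libraries only. Fusion libraries were tested against wild-type libraries (n = 2 each) with edgeR's quasi-likelihood test and Benjamini-Hochberg adjustment over 16511 genes. Tests are given for the 189, and the other 27, whose selection leaned on 1 group, are described without a test. Of the 189, 9 fell and 3 rose. The genes that fell encode carriers of neutral and cationic amino acids (Slc38a2, Slc7a3, Slc6a15), fatty acids (Slc27a2), phosphate (Slc20a1), mitochondrial aspartate and glutamate (Slc25a12), nucleotides of secretory vesicles (Slc17a9) and zinc (Slc39a14), with Slc35f2. Those that rose include the genes of the mitochondrial acylcarnitine carrier (Slc25a20) and of a magnesium transporter (Slc41a1).

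The 9 lower calls are 4.76% of the 189, beside 0.658% of 11241 protein-coding genes at the same level in both groups and 0.581% of all genes tested. The 3 higher calls are 1.59%, beside 1.9% and 2.83%. The median log2 fold change was -0.03 for the 189 and -0.04 for the 11241 genes. In library-scaled counts, both fusion libraries lay above both wild-type libraries for 49 of the 189 (25.9%, beside 22.3% of the 11241 genes) and below them for 47 (24.9%, beside 26.8%). A change of less than 1.5-fold was seen for 136 members, 72% of the 189 against 79.6% of the 11241. Leaving out fusion replicate 1 ends all 12 calls: 0 of the 189 then passed in edgeR (25 at an unadjusted p under 0.05), when 0.938% of all genes tested passed. That fit has 1 fusion library, which is assumed to vary like the wild-type pair. The 12 kept their direction in it, with log2 fold changes of 0.89 for Slc41a1, -1.17 for Slc20a1, -1.13 for Slc38a2 and -2.14 for Slc27a2. Of the 12, 7 passed without the parental library, 6 without the empty-vector library and 5 without fusion replicate 2. Slc41a1 and Slc35f2 passed in none of these 4 fits, and Slc6a15 and Slc25a12 in each of the 3 that kept fusion replicate 1. DESeq2's Wald test on all 4 libraries called 13 members lower and 10 higher. Of all genes in that fit, 4.73% passed in either direction. The DESeq2 fit also held genes below the edgeR filter, and its share among the 11241 genes was not counted.

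The regions around the listed start sites of 5 of these 12 genes are shown, 3 that fell and 2 that rose. Whether these regions regulate the genes in these cells was not tested. They are RefSeq promoters on build GRCm38.p6, from 250 bases before to 50 after the listed start, 5′ to 3′ on the gene's strand. RefSeq promoters matched 162 of 216 members and 7 of the 12. The listed start lies inside the annotated gene for Slc27a2 and Slc41a1, 617 and 519 bases from the gene's start. Slc20a1 has 2 listed promoters, of which 1 is shown, and its TATAAA begins 1 base before the listed start. Capitals mark matches, on either strand, to the E-box CACGTG, the GC-box GGGCGG, the CCAAT box, the TATA box TATAAA and the nuclear receptor hexamer AGGTCA. Slc38a2 lies at chr15:96699679-96699978 (minus strand), Slc20a1 at chr2:129198523-129198822 (plus), Slc27a2 at chr2:126552774-126553073 (plus), Slc25a20 at chr9:108661886-108662185 (plus) and Slc41a1 at chr1:131827762-131828061 (plus).
Slc38a2: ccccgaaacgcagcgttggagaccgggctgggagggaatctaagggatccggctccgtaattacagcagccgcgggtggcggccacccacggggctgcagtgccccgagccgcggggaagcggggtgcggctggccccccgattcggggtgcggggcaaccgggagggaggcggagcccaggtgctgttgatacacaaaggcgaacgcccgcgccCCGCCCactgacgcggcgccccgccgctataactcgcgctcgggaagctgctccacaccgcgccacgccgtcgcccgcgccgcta
Slc20a1: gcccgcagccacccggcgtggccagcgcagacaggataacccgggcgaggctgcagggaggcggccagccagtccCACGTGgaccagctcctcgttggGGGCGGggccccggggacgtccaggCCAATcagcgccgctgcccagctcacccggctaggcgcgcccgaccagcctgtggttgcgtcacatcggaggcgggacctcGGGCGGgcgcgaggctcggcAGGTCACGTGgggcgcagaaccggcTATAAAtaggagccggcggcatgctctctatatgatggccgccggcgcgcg
Slc27a2: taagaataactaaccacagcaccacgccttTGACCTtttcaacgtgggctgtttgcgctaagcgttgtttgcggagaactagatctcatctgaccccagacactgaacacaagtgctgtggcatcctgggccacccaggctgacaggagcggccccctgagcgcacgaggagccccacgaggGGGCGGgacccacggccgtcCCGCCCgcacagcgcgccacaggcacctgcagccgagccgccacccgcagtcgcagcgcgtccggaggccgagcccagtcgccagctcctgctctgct
Slc25a20: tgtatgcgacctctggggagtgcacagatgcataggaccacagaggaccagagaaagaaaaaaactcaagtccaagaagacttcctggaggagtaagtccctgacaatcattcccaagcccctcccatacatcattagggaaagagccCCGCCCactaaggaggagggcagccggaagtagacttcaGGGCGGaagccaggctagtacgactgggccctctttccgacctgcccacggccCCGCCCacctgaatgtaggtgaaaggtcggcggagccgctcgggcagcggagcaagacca
Slc41a1: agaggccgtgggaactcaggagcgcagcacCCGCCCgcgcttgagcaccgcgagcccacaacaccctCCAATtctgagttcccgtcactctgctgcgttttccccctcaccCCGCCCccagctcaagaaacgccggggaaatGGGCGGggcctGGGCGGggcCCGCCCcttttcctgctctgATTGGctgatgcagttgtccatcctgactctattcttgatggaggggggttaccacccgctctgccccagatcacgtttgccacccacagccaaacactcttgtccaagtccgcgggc

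Of the 7 called members with a promoter, 6 held a GC-box, the 5 shown and Slc35f2, while the window of Slc25a12 held none of the motifs searched. The GC-box was found in 74.7% of the 162 member promoters, in 66.8% of 9667 promoters of protein-coding genes at 2 TPM and in 35.7% of all 32851 promoters of this length. Slc20a1 alone among the 7 held the E-box, at 2 places, of which the one nearer the start overlaps an AGGTCA. An E-box was found in 13.6% of member promoters, 10.5% of expressed promoters and 7.15% of all. Slc27a2 held AGGTCA on the opposite strand, and Slc35f2 on its own strand (13% of member promoters, 11.9% of expressed promoters, 16.3% of all). CCAAT was in 36.4%, 39.4% and 37.4% of the same 3 sets, and TATAAA in 6.79%, 6.47% and 13.6%. Searches for TGATTTAT, a HOX-PBX sequence, TGACGTCA, the cAMP response element, and TGATGNAA, an ATF4-C/EBP sequence, matched none of the 7 windows. Those letters were in 0%, 1.23% and 2.47% of member promoters, in 0.393%, 3.28% and 2.15% of expressed promoters and in 0.977%, 1.79% and 3.97% of all.

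Mitochondrial carriers, the Slc25 family of the inner mitochondrial membrane, held the most transcript. Their 37 members summed to 2314 TPM in parental and 2372 TPM in empty-vector cells and to 2738 and 2619 TPM in fusion replicates 1 and 2, which is 36.5% to 41.1% of all member TPM. Amino acid and peptide carriers came next, with 38 members and sums of 1345, 1314, 1164 and 1258 TPM in the same order. All members together summed to 5991 to 6662 TPM, or 0.599% to 0.666% of the transcriptome. The single most abundant member was Slc25a5, an ADP/ATP carrier, which alone gave 10.4% to 12.8% of that sum.

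**Figure D1:**
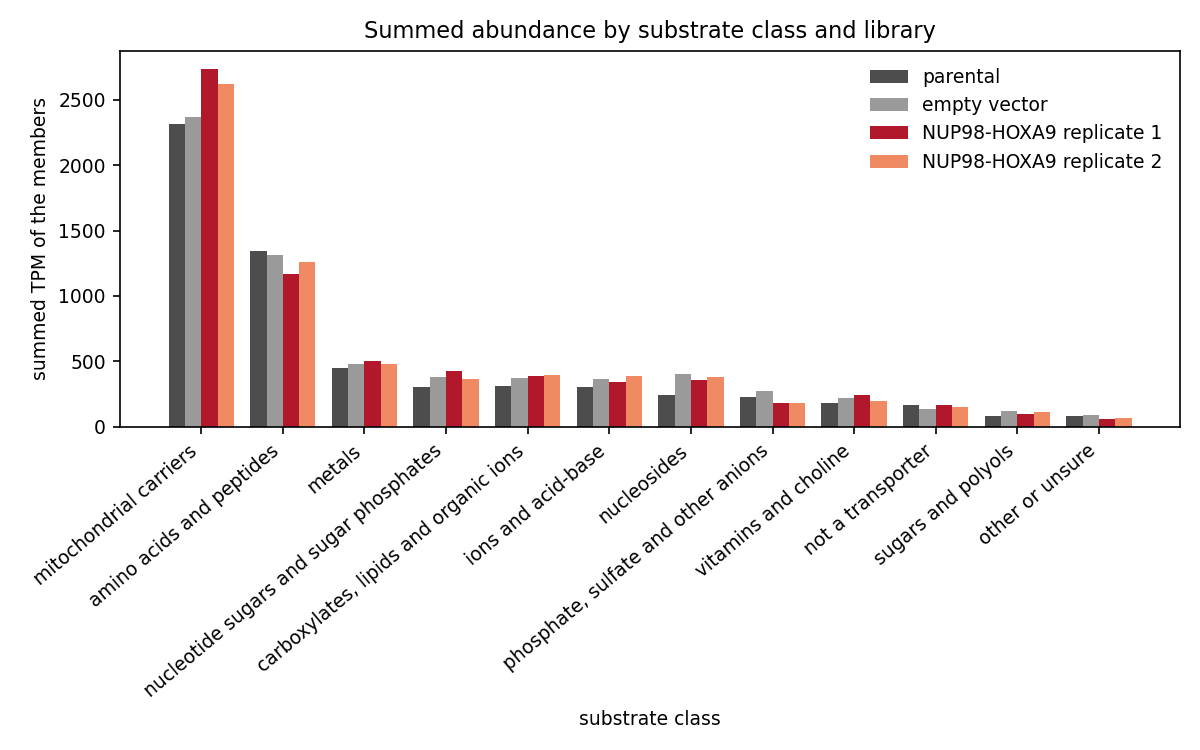
Summed TPM of the member genes of each substrate class (vertical axis) in the 4 libraries, 1 bar a library. Mitochondrial carriers stand at 2314 to 2738 TPM and amino acid carriers at 1164 to 1345 TPM, and each of the other classes stays at or below 500 TPM.

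Of 31 members of this class measured in both groups, 3 fell and 1 rose, with a median log2 fold change of -0.16. Slc38a2 (SNAT2), a sodium-coupled importer of small neutral amino acids (ENSMUSG00000022462, chromosome 15, 96687392 to 96699730, minus strand), stood at 154 TPM in parental and 198 TPM in empty-vector cells, and at 99.2 and 88.1 TPM in fusion replicates 1 and 2. Both fusion libraries were lower than both wild-type libraries, which the rule for naming called genes required of all of them, in scaled counts. Its log2 fold change was -1.01 (SE 0.19, adjusted p = 0.0391, edgeR). Slc7a3 (CAT-3), a carrier of arginine and lysine (chromosome X, 101079210 to 101086020, minus strand), stood at 109 and 140 TPM in wild type and at 55.3 and 71.5 TPM with the fusion. The groups did not overlap, and the log2 fold change was -1.1 (SE 0.2, adjusted p = 0.0366). Slc6a15, a sodium-driven carrier of branched-chain amino acids and proline (chromosome 10, 103367783 to 103419377, plus strand), stood at 12.9 and 15.6 TPM against 1.71 and 4.29 TPM. It was 4.75-fold lower with the fusion (log2 -2.25, SE 0.39, adjusted p = 0.0335).

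Slc38a2 has neighbours of its own family on chromosome 15. Slc38a1, which lies 44478 bases from Slc38a2 on the same strand, stood at 45.9 and 40 TPM in wild type and 16.2 and 29.6 TPM with the fusion. It did not pass (log2 -1.1, SE 0.25, adjusted p = 0.0652). Slc38a4, further along the same strand (96994820 to 97055956), stood at 115 and 96.6 TPM against 137 and 159 TPM, with a log2 fold change of 0.41 (adjusted p = 0.283). Genes of chromosome 15 had a median log2 ratio of 0.35 in fusion replicate 1 against the other libraries, the direction opposite to that of Slc38a1 and Slc38a2.

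The heteromeric amino acid exchangers had no member past the test. Their heavy chain Slc3a2 (CD98) was the most abundant gene of the class, at 254, 195, 168 and 216 TPM in the parental, empty-vector and fusion 1 and 2 libraries (log2 -0.38, SE 0.22, adjusted p = 0.408). Its light chains included Slc7a5 (LAT1), at 121, 66.7, 77.6 and 85.9 TPM, and Slc7a7 (y+LAT1), at 95.3, 106, 58.1 and 66.7 TPM. Another, Slc7a6 (y+LAT2), stood at 42.5, 20.6, 27.2 and 31.8 TPM. Slc7a6os lies 2010 bases from Slc7a6 on the opposite strand, without overlap. Slc7a7 was nearest to the threshold (log2 -0.75, SE 0.17, adjusted p = 0.064). Slc7a5 and Slc7a6 lie on chromosome 8, whose genes had a median log2 ratio of 0.42 in the parental library against the other 3. Both were highest in the parental library. So were other members on chromosome 8, such as Slc20a2 and Slc38a7, while Slc12a4, Slc27a1 and Slc10a7 were not. The part of the chromosome in these values was not tested. The taurine transporter Slc6a6 was level, at 97.1, 102, 113 and 101 TPM. The creatine transporter Slc6a8, at 47.7 and 94 TPM in the controls and 127 and 87.3 TPM with the fusion, lay higher in the empty-vector library than in fusion replicate 2, so the groups overlapped.

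**Figure D2:**
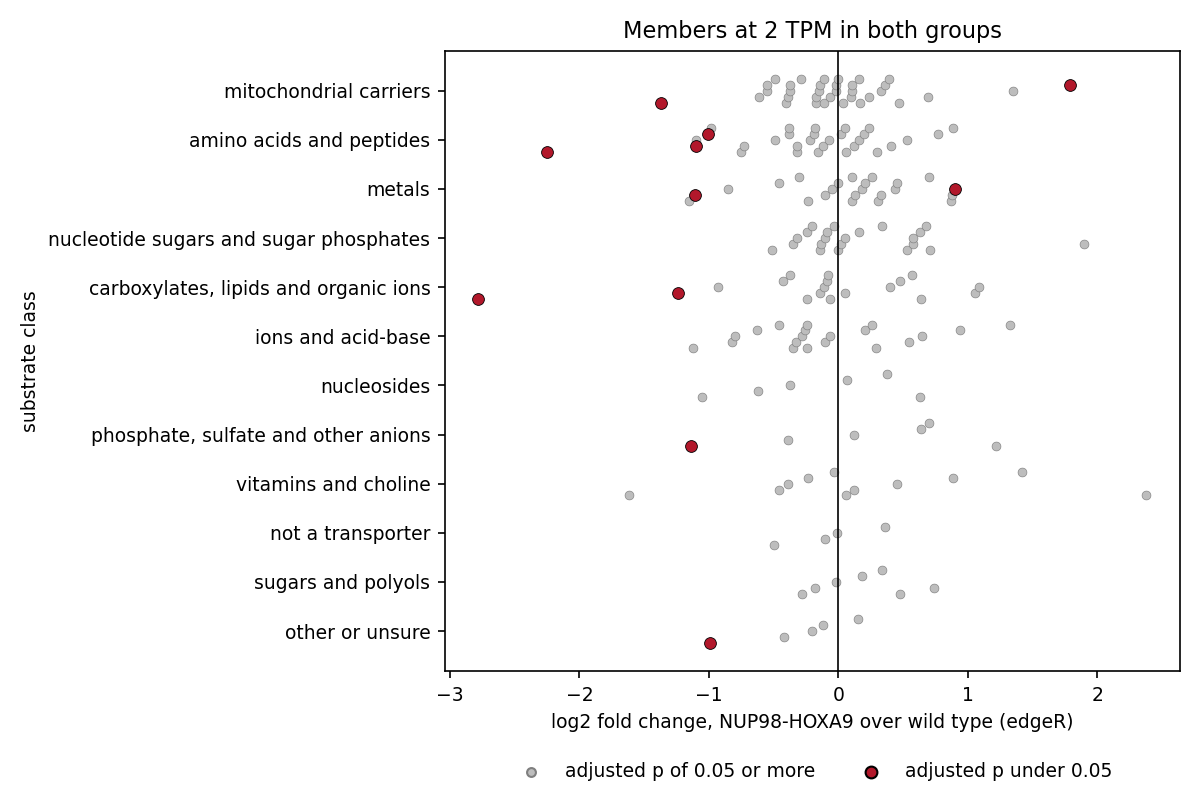
Log2 fold change of NUP98-HOXA9 over wild type (horizontal axis, edgeR) for 186 of the 189 members at 2 TPM in both groups, by substrate class, 1 point a gene. The 11 red points drawn passed an adjusted p of 0.05: 9 lie left of 0, down to -2.78 (Slc27a2), and 2 right of it, up to 1.79 (Slc25a20).

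Of 34 mitochondrial carriers measured in both groups, 1 fell and 1 rose, with a median log2 fold change of -0.04. Slc25a12 (aralar), which exchanges aspartate for glutamate in the malate-aspartate shuttle (chromosome 2, 71271063 to 71367749, minus strand), stood at 46.3 and 51.7 TPM in wild type and 22.8 and 24.7 TPM with the fusion. Both fusion libraries lay below both wild-type libraries, as the naming rule required. The log2 fold change was -1.37 (SE 0.2, adjusted p = 0.0215). Its paralogue Slc25a13 (citrin), with the same exchange, stood at 58.1, 34, 42.9 and 55.7 TPM (log2 -0.02, SE 0.3, adjusted p = 0.981). Slc25a20, which brings acylcarnitines into mitochondria for fatty acid oxidation (chromosome 9, 108662088 to 108684641, plus strand), stood at 10.9 and 16.4 TPM in wild type and 63 and 37.3 TPM with the fusion. Both fusion libraries were higher, replicate 1 the more so, and the log2 fold change was 1.79 (SE 0.32, adjusted p = 0.037).

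The ADP/ATP carriers export mitochondrial ATP. Slc25a5 stood at 767, 802, 693 and 841 TPM (log2 -0.14, SE 0.17, adjusted p = 0.714). None of its 4 estimated counts was whole, as arises when reads that match several genes are divided among them, so its level is uncertain. Its paralogue Slc25a4 stood at 152 and 95.2 TPM in wild type and 444 and 237 TPM with the fusion. Both fusion libraries were above both controls, but the fusion libraries also lay far apart, and the adjusted p was 0.0973 (log2 1.35, SE 0.36). It lies on chromosome 8, whose genes had a median log2 fold change of -0.23. The phosphate carrier Slc25a3, at 369, 434, 499 and 385 TPM, had a log2 fold change of 0 to 2 decimals (SE 0.19).

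Lipid and carboxylate carriers showed 2 falls among 18 measured members. Slc27a2 (FATP2), which takes up very long-chain fatty acids and couples them to coenzyme A (chromosome 2, 126552407 to 126588243, plus strand), stood at 16.7 and 22.1 TPM in wild type and 1.33 and 4.68 TPM with the fusion. It had the lowest log2 fold change of the 189, -2.78 (SE 0.56, adjusted p = 0.0485). Slc17a9, the vesicular nucleotide transporter (chromosome 2, 180725263 to 180742280, plus strand), stood at 39.9 and 36 TPM against 17.3 and 17.2 TPM (log2 -1.24, SE 0.21, adjusted p = 0.0337). Of the lactate transporters, Slc16a3 (MCT4) was the most abundant gene of the class, at 101 and 138 TPM in wild type and 167 and 190 TPM with the fusion (log2 0.48, SE 0.19, adjusted p = 0.217). Slc16a1 (MCT1) was level, at 45.2, 39.6, 44.7 and 41.6 TPM. Slc27a3, of the same family as Slc27a2, stood at 5.61 and 18 TPM in the controls and 32.5 and 20 TPM with the fusion (log2 1.06, adjusted p = 0.308).

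Of the 12 called genes, 4 lie on chromosome 2, and all 4 fell: Slc27a2, Slc25a12, Slc17a9 and Slc20a1. Chromosome 2 holds 17 of the 189 members at 2 TPM in both groups. Whether 4 calls among these 17 are more than elsewhere was not tested. Calls among all genes of chromosome 2 were not counted. The median log2 fold change of 910 genes of chromosome 2 was -0.04, the same as over all 11241 genes.

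Metal carriers had 1 fall and 1 rise among 23. Slc39a14 (ZIP14), which imports zinc, iron and manganese (chromosome 14, 70303469 to 70351425, minus strand), stood at 42.8 and 56.4 TPM in wild type and 24.5 and 25.5 TPM with the fusion (log2 -1.11, SE 0.18, adjusted p = 0.0306). The fusion libraries were close together and, as the naming rule required, below both controls. Slc41a1, a magnesium transporter (chromosome 1, 131827493 to 131848865, plus strand), stood at 12.9 and 12.8 TPM against 24.4 and 25.9 TPM. The parental and empty-vector libraries were nearly equal, as were the fusion libraries. Slc41a1 was 1.86-fold higher with the fusion (log2 0.9, SE 0.18, adjusted p = 0.0477). The most abundant gene of the class, Slc39a7 (ZIP7), which releases zinc from the endoplasmic reticulum, ranged from 80.2 to 87.7 TPM over the 4 libraries (log2 -0.05, SE 0.17). The other zinc exporters and importers named Slc30 or Slc39 did not pass.

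Slc20a1 (PiT-1), a sodium-phosphate cotransporter that some retroviruses use as receptor (chromosome 2, 129198764 to 129211616, plus strand), fell. It stood at 140 and 192 TPM in wild type and 79.7 and 79.2 TPM with the fusion (log2 -1.14, SE 0.2, adjusted p = 0.0353). Its paralogue Slc20a2 (PiT-2), at 59.1, 44.8, 38.2 and 47.9 TPM, had an adjusted p of 0.368 (log2 -0.39). No other of the 6 anion carriers measured in both groups passed. Slc26a10 stood at 9.7 and 16.8 TPM in wild type and 34.4 and 23.9 TPM with the fusion (log2 1.22, SE 0.33, adjusted p = 0.0978). Slc35f2, grouped with members of uncertain substrate (chromosome 9, 53771538 to 53818154, plus strand), fell from 39.1 and 46.4 TPM to 23.4 and 23.9 TPM (log2 -0.99, SE 0.19, adjusted p = 0.0431).

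**Figure D3:**
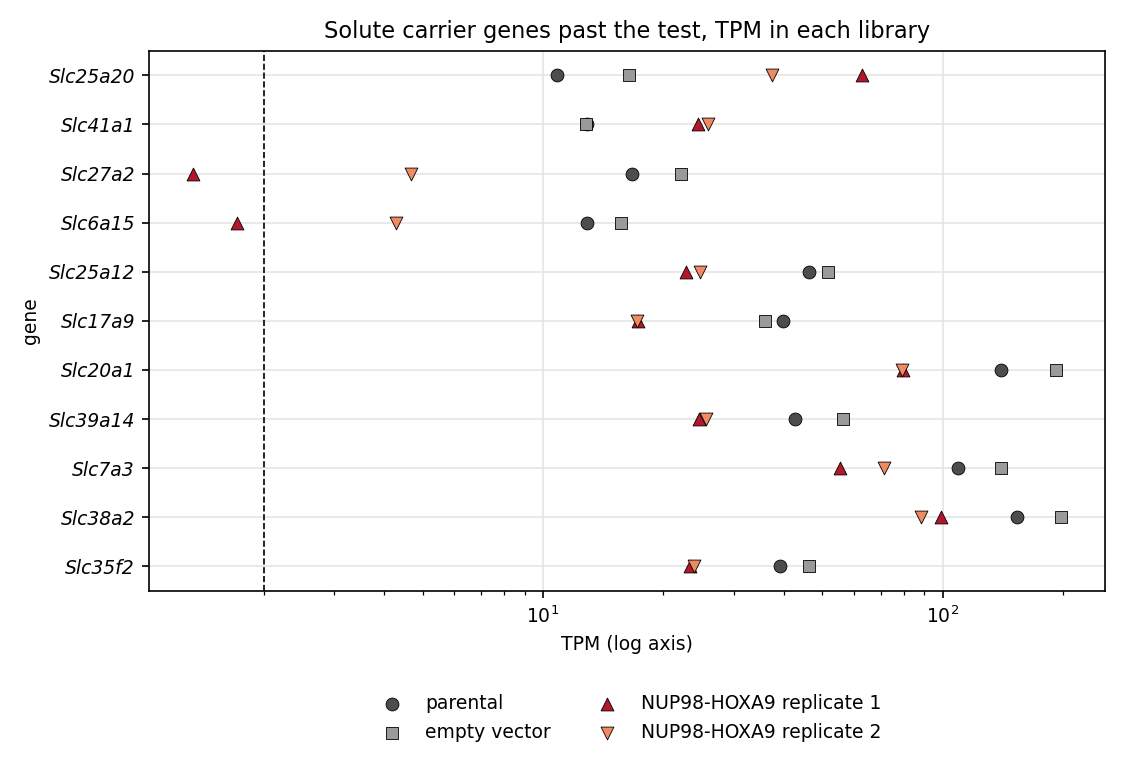
TPM of 11 called genes in the 4 libraries (log axis, 1 symbol a library; the dashed line marks 2 TPM). For Slc25a20 and Slc41a1 both fusion libraries lie right of both wild-type libraries, and for the other 9 they lie left of them. The rule for naming called genes required such a gap in scaled counts.

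Ion and acid-base carriers, which set cell volume and pH, had 22 members measured in both groups and no call in edgeR (6 at an unadjusted p under 0.05; 2 higher and 1 lower by DESeq2). The potassium-chloride cotransporter Slc12a7 was the most abundant, at 34.7 and 35.5 TPM in wild type and 49.3 and 64.5 TPM with the fusion (log2 0.55, SE 0.2, adjusted p = 0.186). Slc12a8 went the other way, at 9.39 and 13 TPM against 6.46 and 5.71 TPM (log2 -1.12, SE 0.27, adjusted p = 0.072). In both genes the groups did not overlap.

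Carriers of nucleotide sugars, which feed glycosylation in the Golgi, had 22 members measured in both groups and no call (4 at an unadjusted p under 0.05; 1 higher by DESeq2). Their median log2 fold change was 0.01. Slc35a4 was the most abundant, at 46.1, 55, 71.9 and 49.5 TPM. Slc37a2, a sugar-phosphate exchanger, had the lowest adjusted p of the members that did not pass, at 1.17 and 2.21 TPM in wild type and 6.48 and 6.03 TPM with the fusion (log2 1.9, SE 0.4, adjusted p = 0.0526). Among 6 nucleoside carriers, with no call (2 unadjusted; 1 lower by DESeq2), the equilibrative transporter Slc29a1 stood at 183 TPM in the parental library and between 310 and 329 TPM in the other 3, so the gap was between the controls. Slc28a1, a concentrative pyrimidine transporter, stood at 17.9 and 24.2 TPM against 12.4 and 9.39 TPM (log2 -1.05, SE 0.25, adjusted p = 0.075).

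Vitamin and choline carriers had 11 members measured in both groups and no call (4 unadjusted; 2 higher by DESeq2). The choline transporter Slc44a1 stood at 41.1, 38.3, 50.2 and 38 TPM. The proton-coupled folate transporter Slc46a1 was at 8.8 and 6.24 TPM in wild type and 27.3 and 13.4 TPM with the fusion (log2 1.42, SE 0.4, adjusted p = 0.109), while the reduced folate carrier Slc19a1 was at 12.2, 15.4, 16.2 and 11.3 TPM. Among 7 sugar and polyol carriers there was no call (0 unadjusted; 0 by DESeq2). With Slc2a1 and Slc2a3 left out (228 and 460 against 707 and 758 TPM, and 424 and 571 against 1264 and 1470 TPM), this class held 79.9 to 116 TPM in all, and Slc45a4 led it at 26.2 to 33.2 TPM. The names of 4 members are those of proteins that bind or neighbour a carrier and transport nothing themselves. Slc9a3r1 (NHERF1), a scaffold, was the highest of these, at 68.9, 54, 90.5 and 79.6 TPM.

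Of the 27 members that reached 2 TPM in 1 group only, 8 had a mean level at least 4-fold apart between groups, all higher with the fusion. They are given without a test, since the rule that chose them used these values. Calls over all genes tested also leaned upward, with 468 higher and 96 lower. Whether the direction is particular to members was not tested. How such 1-group genes split over all protein-coding genes at 2 TPM was not counted. The 23 that reached it in fusion libraries only comprised 7 amino acid, 4 lipid and carboxylate, 4 sugar, 3 metal, 2 mitochondrial, 1 ion, 1 nucleotide sugar and 1 vitamin carrier, and the 4 others were Slc39a8, Slc46a3, Slc25a45 and Slc34a3. Slc6a16, an orphan member of the neurotransmitter transporter family, stood at 0.36 and 0.73 TPM in wild type and 8.74 and 8.99 TPM with the fusion, a 15.3-fold ratio in scaled counts. Slc17a7 (VGLUT1), which loads glutamate into synaptic vesicles, lies 64942 bases from Slc6a16 on chromosome 7 and stood at 1.56 and 1.64 TPM against 6.91 and 9.4 TPM, a 4.76-fold ratio. Both fusion libraries were above both controls for both neighbours.

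Of the 8, 4 others carry amino acids or ions. Slc38a8 stood at 0.11 and 0.15 TPM in wild type and 2.03 and 1.33 TPM with the fusion, from 4 and 5 counts in wild type. Slc38a5 stood at 0.59 and 0.47 against 5.95 and 2.05 TPM, and Slc7a2 (CAT-2), a cationic amino acid carrier like the Slc7a3 that fell, at 0.35 and 0.52 against 2.63 and 2.37 TPM. Even with the fusion, Slc7a2 stayed far under the 55.3 and 71.5 TPM of Slc7a3. Slc7a1, a cationic amino acid carrier at 2 TPM in both groups, stood at 19.6 and 11.9 against 30.4 and 28.2 TPM. It did not pass (log2 0.77, SE 0.28, adjusted p = 0.197, edgeR). Slc4a9, a bicarbonate transporter family member, stood at 0.44 and 0.83 against 3.12 and 3.02 TPM. Slc35g2 (0.38 and 0.1 against 3.32 and 1.42 TPM) and the sugar transporter Slc2a7 (0.26 and 0.76 against 3.29 and 1.06 TPM) were at 2 TPM in fusion replicate 1 only.

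**Figure D4:**
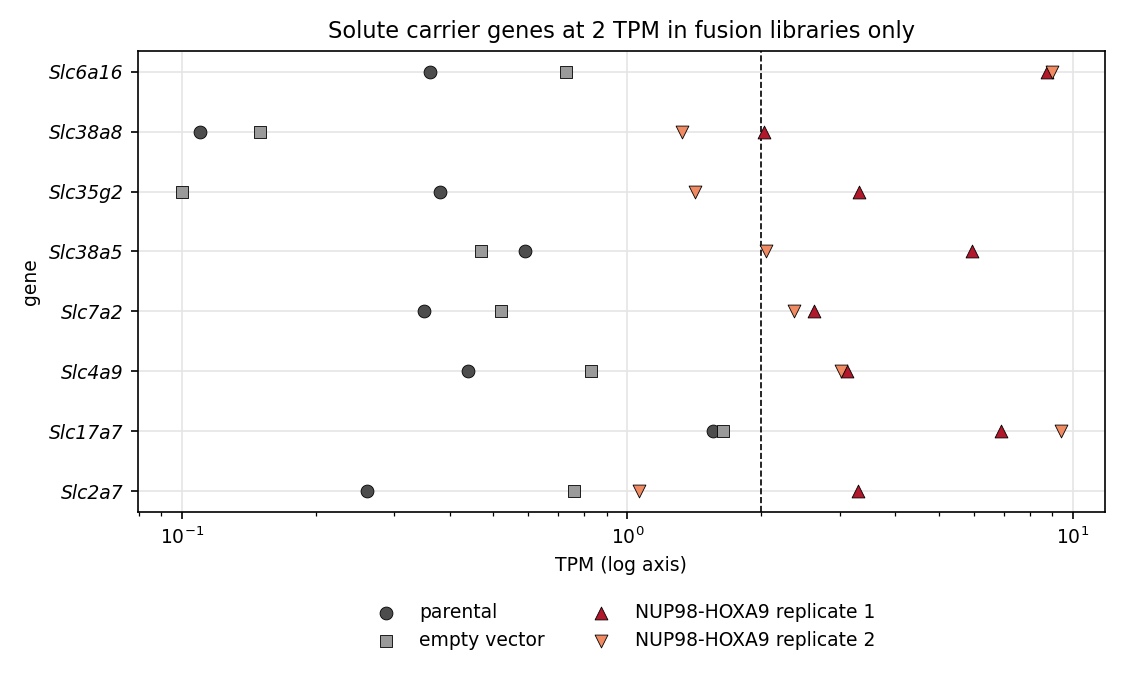
TPM of the 8 genes that reached 2 TPM (dashed line) in fusion libraries only and differed at least 4-fold in mean level, in the 4 libraries (log axis). Every gene has both fusion libraries right of both wild-type libraries, as its selection favours.

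At the edge of the rule, the members with the lowest maximum were Slc22a21 (2.02 TPM in fusion replicate 2), Slc38a8 (2.03 TPM in fusion replicate 1) and Slc2a5 (2.07 TPM in fusion replicate 2). Just outside were Slc25a41 (1.99 TPM), Slc16a9 (1.93 TPM) and Slc18a1 (1.81 TPM).

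Libraries of 1 group also differed. Between the controls, with 1 library on each side and no replicate check, 6 of the 189 members were at least 2-fold higher in the empty-vector library and 6 at least 2-fold lower (3.17% each). The same held for 2.9% and 2.41% of the 11223 protein-coding genes compared and for 4.73% and 3.75% of all genes at 1 CPM (counts scaled to library size). Slc30a3, a zinc transporter, was 4.01-fold lower with the empty vector (5.57 against 1.45 TPM), and Slc27a3 was 2.85-fold higher (5.61 against 18 TPM). Slc46a3, a lysosomal transporter, and Slc6a9 (GlyT1), a glycine transporter, were 3.12-fold and 2.87-fold lower with the empty vector.

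Between the fusion libraries, 13 of 189 members (6.88%) were at least 2-fold higher in replicate 2 and 4 (2.12%) at least 2-fold lower, beside 4.21% and 1.46% of 11224 protein-coding genes and 6.85% and 2.73% of all genes at 1 CPM. Slc23a1, an ascorbate transporter, stood at 0.97 TPM in replicate 1 and 6.27 TPM in replicate 2, with controls at 8.24 and 12.3 TPM. It overlaps Paip2 on the opposite strand (189 to 255 TPM), and without a stated counting strand their reads cannot be told apart. Slc40a1 (ferroportin), the iron exporter, stood at 1.75 and 7.23 TPM, with controls at 5.8 and 7.66 TPM. Fusion replicate 1 was the lowest library for both genes, and neither passed with all 4 libraries (adjusted p = 0.29 and 0.564). Slc15a1 (PEPT1), a peptide transporter, was 3.64-fold higher in replicate 2, and Slc27a2, which fell in both fusion libraries, was 3.52-fold higher there than in replicate 1.

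**Figure D5:**
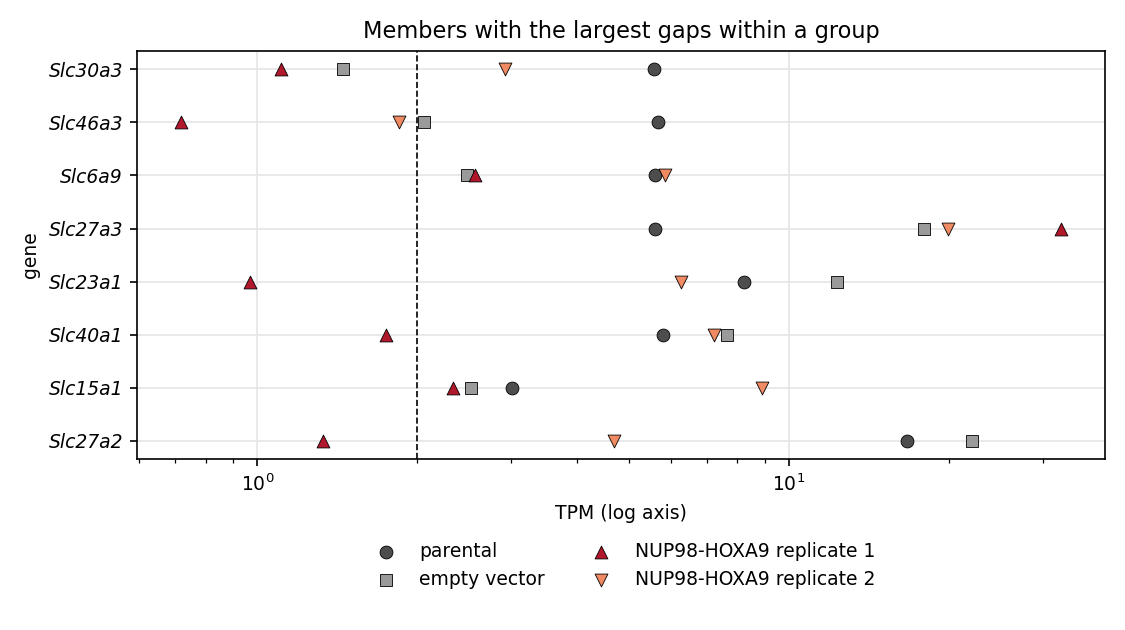
TPM of the members with the largest fold between the controls or between the fusion libraries, in the 4 libraries (log axis; the dashed line marks 2 TPM). Slc23a1 and Slc40a1 have fusion replicate 1 alone at the left, at 0.97 and 1.75 TPM, and Slc6a9 has the parental library and fusion replicate 2 together at the right.

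Slc6a9 had a within-group pattern that crosses the groups: 5.61 TPM in the parental and 5.85 TPM in the fusion 2 library, against 2.48 and 2.57 TPM in the empty-vector and fusion 1 libraries. It overlaps B4galt2 on the opposite strand (6.19 to 10.5 TPM), with the same limit. Slc1a4 (ASCT1), an exchanger of serine and other neutral amino acids, named after its values were seen, had the same order, at 15.6 and 14.1 against 7.14 and 6.03 TPM. A search made after this was seen counted genes at least 1.5-fold higher both in parental over empty-vector cells and in fusion replicate 2 over replicate 1, in scaled counts. It found 7 of 189 members (3.7%) and 2.12% of the 11241 genes. Among the 7 were Slc30a3 and the genes that prompted the search, Slc6a9 and Slc1a4, which raise the member share. The reverse order was found for 4 members (2.12%) and for 1.13% of the 11241 genes. Among 24 tested genes of the amino acid response, the set that ATF4 induces when amino acids run short, the search found 7 (29.2%). These were Aldh18a1, Chac1, Mthfd2, Nupr1, Psat1, Pycr1 and Vldlr. All of the 24 but Vldlr were at 2 TPM in both groups, the level set for the 11241 genes. Psat1, of serine synthesis, stood at 287, 81.9, 67.1 and 140 TPM in the parental, empty-vector, fusion 1 and fusion 2 libraries. Asns, asparagine synthetase, stood at 227, 93.8, 133 and 203 TPM. Fusion against wild type, none of the 24 passed (0 at an unadjusted p under 0.05; 0 by DESeq2), and their median log2 fold change was -0.13. Ddit3 (CHOP), a stress-induced transcription factor of this list, stood at 14.2, 10.5, 15.6 and 33.9 TPM (log2 0.9, adjusted p = 0.306).

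A separate list of 30 held genes that work with solute carriers and also transporters whose symbols fall outside the member rule. Of 22 at 2 TPM in both groups, 3 rose and 0 fell in edgeR, beside 1.9% and 0.658% of the 11241 genes. At an unadjusted p under 0.05 were 7 of the 22, and DESeq2 called 4 higher and 1 lower. The median log2 fold change was 0.28, beside -0.04 over the 11241 genes. Atp1b2, a beta subunit of the sodium pump that powers sodium-coupled uptake, rose from 5.36 and 7.22 TPM to 57.4 and 26.3 TPM (log2 2.64, SE 0.38, adjusted p = 0.0215). Atp1b1, another beta subunit of the pump (51.8, 55.1, 48.6 and 81.6 TPM), did not pass (log2 0.25, adjusted p = 0.601). Nptn (neuroplastin), a chaperone of monocarboxylate transporters, rose from 66.7 and 73.3 to 214 and 138 TPM (log2 1.2, adjusted p = 0.0422). Bsg (basigin), which has the same role, stood at 339, 522, 549 and 570 TPM (adjusted p = 0.531). Emb (embigin), of the same list, went the other way, at 70.7 and 62.8 against 30.3 and 50.7 TPM. It did not pass (log2 -0.86, SE 0.27, adjusted p = 0.135). Xpr1, the phosphate exporter, rose from 3.95 and 4.19 to 8.85 and 9.51 TPM (log2 1.07, SE 0.21, adjusted p = 0.0471), where the importer Slc20a1 fell. Slco2a1, a prostaglandin transporter at 2 TPM in fusion libraries only and so given without a test, stood at 0.17 and 0.12 against 4.15 and 3.02 TPM. Of 23 ABC transporter genes, which use ATP, at 2 TPM in both groups, Abca3 rose and 0 fell in edgeR (6 at an unadjusted p under 0.05; 1 higher and 0 lower by DESeq2). Abca3 went from 2.74 and 2.47 to 6.55 and 6.88 TPM.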

How the data were processed

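RNA was sequenced in 4 libraries made with a stranded mRNA kit (labels' protocols). Per gene, the authors deposited expected counts, TPM and FPKM, per the file headers, and FPKM was not used here. The submitters' processing notes list STAR 2.7.10a, RSEM 1.3.3, DESeq2 1.36.0 and GRCm38/mm10. For the annotation release and counting strand nothing was found in these sources, and antisense overlaps cannot be separated. GENCODE vM21 matched 55141 of 55401 identifiers (99.5%); Ddit3, a symbol of 2 identifiers, was read from the more abundant.

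Expected counts were rounded and fitted in edgeR 4.0.16 (R 4.3.3): TMM, filterByExpr with a minimum count of 10, robust quasi-likelihood, 16511 genes, Benjamini-Hochberg threshold 0.05. The SE is the absolute log2 fold change divided by the square root of F. On simulated data more calls were false than the threshold states, and most 2-fold changes were missed. Alternatives were DESeq2 1.42.0, limma 3.58.1 on log2(TPM + 1), other scalings and filters, and each library left out.

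Members, lists and substrate classes were chosen with earlier results of these data known. Named genes were the called members at 2 TPM in both groups (up to 12 each way, groups not overlapping), 1-group members at least 4-fold apart (up to 10), the most abundant gene of each class of 3 or more, the 4 largest gaps within each pair at 5 CPM or more (prior count 2), 3 genes each side of the threshold, and called genes of related lists. Others were chosen after their values were seen, as paralogues, partners or near-threshold members. Values of some genes, 1 of the 12 called members among them, are not reported here.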

Additional observations from a re-analysis of the deposited data

How the results depend on the processing

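Without a filter, 9 members were higher and 13 lower, and 1315 genes higher and 631 lower in all. DESeq2's Wald test gave 10 members higher and 13 lower, and 931 genes higher and 432 lower. By limma on log2(TPM + 1), 2 members were higher and 5 lower. Scaling by library totals gave 3 higher and 7 lower. With 1 library left out in turn, members called higher ranged from 0 to 3 and lower from 0 to 7, and all genes called higher from 152 to 367 and lower from 11 to 185. The lowest counts came without fusion replicate 1. Each such fit leaves 1 library in a group, assumed to vary like the other group. Of the 12 called members, 7 passed without the parental library, 6 without the empty vector (5 members lower in all), 0 without fusion replicate 1 and 5 without fusion replicate 2. Slc6a15 and Slc25a12 passed in the 3 fits that kept fusion replicate 1, and Slc41a1 and Slc35f2 in none of the 4. The 12 kept their direction in every alternative. A TPM minimum of 1 or 5 gave 243 or 173 members. The cause of these shifts was not tested. No paired analysis was possible because only the fusion libraries carry replicate numbers.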

Other observations

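Effective transcript length differed between libraries for a few members, so that TPM and counts give different sizes of change. Slc18b1, a vesicular polyamine transporter, had an effective length of 1656 bases in parental and 1583 in empty-vector cells, against 2487 and 2763 bases in the fusion libraries. The log2 ratio of group means was 0.64 in scaled counts and 0.08 in TPM. The 2 scales were at least 0.5 apart for 1 of 189 members (0.529%) and for 0.569% of the 11241 protein-coding genes. Slc25a12, called lower, was at -1.37 in scaled counts and -1.05 in TPM.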
